A study of Danio rerio with 44 samples.

Results

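The genes of fatty acid beta-oxidation were followed in whole zebrafish embryos exposed to PFOS, PFECHS or FBSA, 3 fluorinated industrial chemicals. Members were the lines of the deposited expression table whose gene name matched one of 29 listed symbols, ignoring case, and a name without its copy letter stood for each copy. The list found 30 of the 25859 gene identifiers in the table. Of these, 19 act in mitochondria, 5 in peroxisomes, 3 in both organelles, and 3 are related genes outside the enzyme classes. All 30 passed the filter on low counts, which left 22703 genes tested. Names are spelled as in the name table, so CPT1A stands for cpt1aa, HADHA for hadhab, and CRAT names 2 identifiers, ENSDARG00000016545 and ENSDARG00000040248.

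The embryos were wild type, labelled WT, and untreated until 24 h after fertilisation. They then spent 72 h in 0.001, 0.1, 1 or 5 mg/L of a compound or in the solvent control, 0.1% DMSO, which every group shared. Each compound had controls of its own. Each library came from a pool of 20 embryos taken at 96 h after fertilisation, with 3 pools in each of the 15 groups except FBSA at 0.1 mg/L, which had 2, giving 44 libraries. PFOS, perfluorooctane sulfonate, is a long-chain sulfonate, PFECHS is a sulfonate with an ethyl-substituted ring, and FBSA is a shorter-chain sulfonamide. A pool of whole embryos mixes all tissues, so fewer cells of a type and less RNA per cell cannot be told apart. Nothing in the labels ties pools to separate clutches, so p-values measure the spread between pools.

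In beta-oxidation a fatty acid bound to coenzyme A is shortened from its carboxyl end by repeated oxidation, hydration, oxidation and thiolysis. Mitochondria take up long chains through the carnitine shuttle and pass the electrons to the respiratory chain, while peroxisomes start on very long and branched chains with oxidases that make hydrogen peroxide. In mammals many of these genes are targets of the fatty acid receptor PPARα, and in the rodent liver its activation raises peroxisomal enzymes and the peroxisome division protein PEX11A.

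Library totals lay between 24478738 and 36533705 counts. Levels are given in CPM, counts scaled to the library total and its TMM normalization factor from edgeR. Changes are log2 fold changes against the compound's own controls, with a standard error (SE). A gene was called at an adjusted p of at most 0.05 in edgeR's quasi-likelihood test, with Benjamini-Hochberg adjustment over all genes tested. Of the tissue markers listed, fabp1b.1, mylpfa, tnni2a.4, vmhc and hbbe1.1 were not found. A name without its copy letter again stood for each copy, so marker counts include several copies of some genes. The markers found for liver, intestine, skeletal muscle, heart, pronephros and red blood cells were detected. The exceptions were nppb, myh6 and 1 identifier named MYH6, all heart markers, which were at 0 in some libraries. The 5 mg/L FBSA group had 2550 called genes, while at most 4 were called at any concentration of PFOS and 0 at any of PFECHS. With the FBSA libraries fitted on their own, 0 genes were called at 5 mg/L, and 3548 had an unadjusted p under 0.05.

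Of the 360 tests of a member at a concentration, 1 passed the threshold: PEX11A fell at 5 mg/L FBSA. EHHADH, the peroxisomal bifunctional enzyme, was called with a negative slope in the FBSA trend test, but its levels did not fall at each step. All 5 peroxisomal members had negative changes at 5 mg/L FBSA, with a median of -0.62 against -0.20 for the 19 mitochondrial members and -0.01 for all genes. After PFOS and PFECHS no member was called at any concentration. The map of changes shows all members and concentrations.

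**Figure D1:**
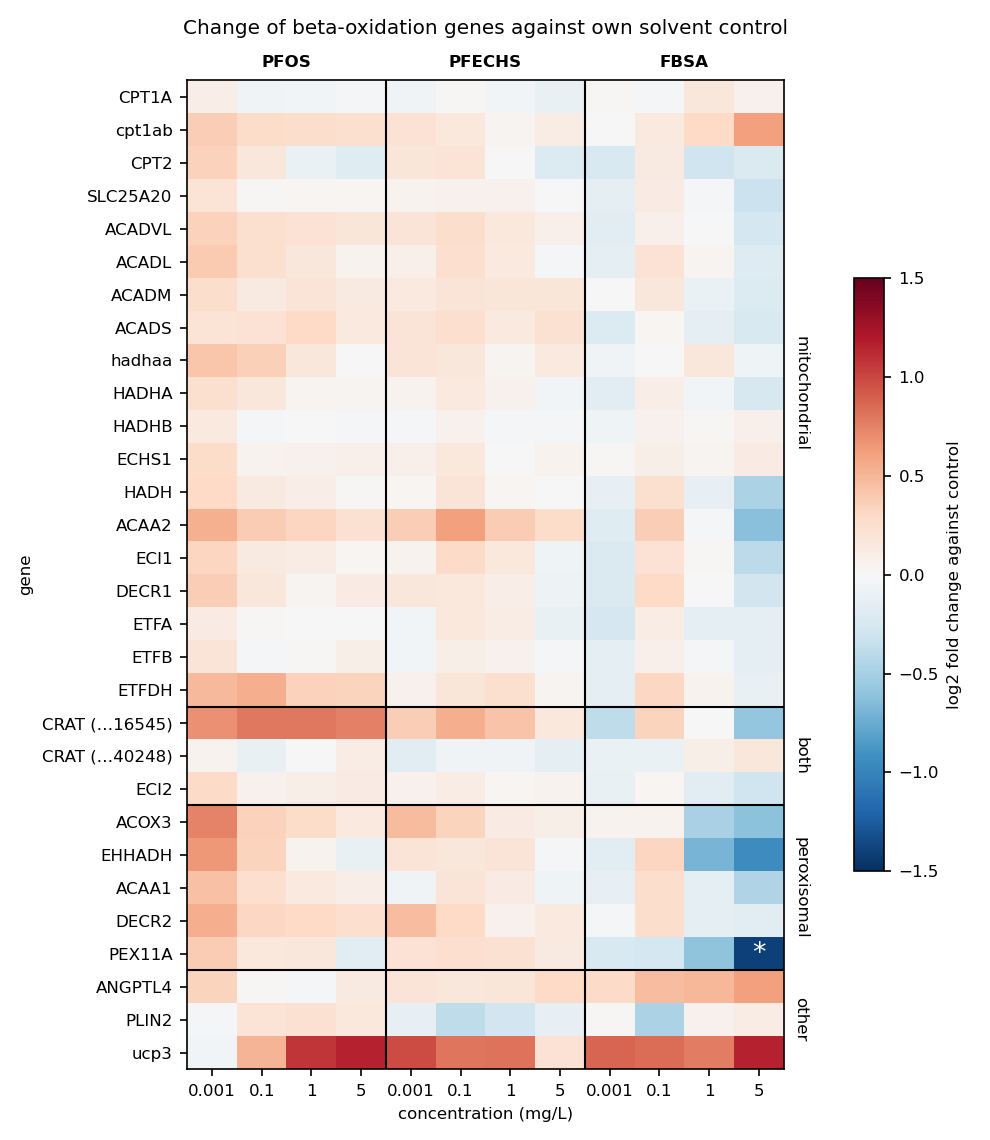
Log2 fold change of each of the 30 genes (rows, grouped by organelle) against the compound's own solvent control at 4 concentrations in mg/L (columns, 3 compounds), with red for higher and blue for lower levels. The asterisk marks the 1 called test, PEX11A at 5 mg/L FBSA, where the change was -1.40.

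PEX11A encodes a membrane protein of peroxisome division. In the FBSA controls it was at 3.04, 2.12 and 1.60 CPM, and in the pools at 5 mg/L FBSA at 0.737, 1.33 and 0.459 CPM. Every exposed pool lay below every control pool, a pattern that 9.27% of all genes tested also showed at this concentration. The change was -1.40 ± 0.37 (SE, 3 pools per group), a 2.64-fold lower level. Its 95% interval ran from -2.15 to -0.65, with an adjusted p of 0.0145 in edgeR's test. The SE, interval and p use the spread over all 44 libraries and not that of the FBSA pools alone. It was the 1 member of 30 called at 5 mg/L FBSA, against 11.2% of all genes.

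At lower FBSA concentrations PEX11A was at 3.16, 1.39 and 1.19 CPM (0.001 mg/L), 2.14 and 1.59 CPM (0.1 mg/L), and 1.3, 1.15 and 1.96 CPM (1 mg/L). These pools overlap with the controls. Across the control and the 4 concentrations the trend was -0.32 ± 0.08 per step, with an adjusted p of 0.0111 in edgeR's test. PEX11A was the least counted member, with 13 to 99 counts per library and a median of 47. The call at 5 mg/L rests on few pools: its adjusted p was 0.0598 without control pool 1, 0.0546 without control pool 2, 0.176 without exposed pool 3 and 0.227 with the FBSA libraries fitted on their own. The trend had an adjusted p of 0.104 without exposed pool 3 and 0.211 with the FBSA libraries on their own.

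For PFOS the same gene was at 1.41, 1.34 and 1.81 CPM in controls and 1.19, 1.1 and 1.79 CPM at 5 mg/L. For PFECHS it was at 1.1, 1.3 and 1.66 CPM in controls and 0.988, 1.66 and 1.83 CPM at 5 mg/L. Exposed and control pools overlapped for both compounds. All PFOS and PFECHS control pools lay below FBSA control pools 1 and 2, although the difference between controls was not called.

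EHHADH joins the hydratase and dehydrogenase steps of the peroxisomal spiral in 1 protein. It was at 12.4, 15.2 and 7.43 CPM in the FBSA controls, 7.28, 4.15 and 10.2 CPM at 1 mg/L and 5.38, 8.21 and 4.62 CPM at 5 mg/L. At 0.001 mg/L it was at 18.2, 6.62 and 6.52 CPM, and at 0.1 mg/L at 16.5 and 12.6 CPM. The lowest control pool lay among the exposed pools, so the groups overlapped. The trend over FBSA concentrations was -0.24 ± 0.08 per step, with an adjusted p of 0.0370 in edgeR's test. The middle group, 0.1 mg/L, carries no weight in this trend. Against the controls alone, the change in the 5 mg/L group was -0.94 ± 0.34 with an adjusted p of 0.0680, which misses the threshold. EHHADH and PEX11A were the 2 members called in the FBSA trend, against 11.2% of all genes tested. Without the 0.001 mg/L pool 1, where EHHADH stood at 18.2 CPM, the adjusted p of its trend was 0.0819, and it was 0.281 with the FBSA libraries on their own. Without control pool 2 it was 0.179, without exposed pool 3 at 5 mg/L 0.189, without control pool 1 0.0631, without 5 mg/L pool 1 0.0827 and without 1 mg/L pool 2 0.0544.

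After PFOS, EHHADH was at 7.78, 6.37 and 11.1 CPM in controls and 7.92, 8.18 and 7.31 CPM at 5 mg/L. After PFECHS it was at 9.43, 6.45 and 6.51 CPM in controls and 7.27, 6.04 and 8.89 CPM at 5 mg/L. All these pools overlap.

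The other peroxisomal members had negative changes at 5 mg/L FBSA without passing the test. ACOX3, an acyl-CoA oxidase, the enzyme class that opens the peroxisomal spiral, was at 15.0, 10.4 and 3.88 CPM in FBSA controls and 7.0, 7.45 and 4.59 CPM at 5 mg/L, a change of -0.62 ± 0.40 (adjusted p = 0.316). The controls spanned a wider range than the exposed pools and enclosed them. With a term for place in the deposited table, ACOX3 was called at 5 mg/L and in the FBSA trend. This term marks the last 11 columns, which hold FBSA control pools 2 and 3 but none of the 5 mg/L FBSA pools. The ACOX3 trend was also called without control pool 3. ACAA1, the peroxisomal thiolase, was at 19.2, 19.2 and 9.77 CPM in controls and 10.3, 12.6 and 12.2 CPM at 5 mg/L (-0.45 ± 0.28, adjusted p = 0.304). DECR2, the peroxisomal dienoyl-CoA reductase needed for polyunsaturated chains, changed by -0.17 ± 0.36 (adjusted p = 0.801 in edgeR's test).

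For ACAA1 and DECR2 as well, control pool 3 was the lowest of the 3 FBSA controls. The plot of 5 peroxisomal genes and cpt1ab shows this spread within the FBSA groups.

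**Figure D2:**
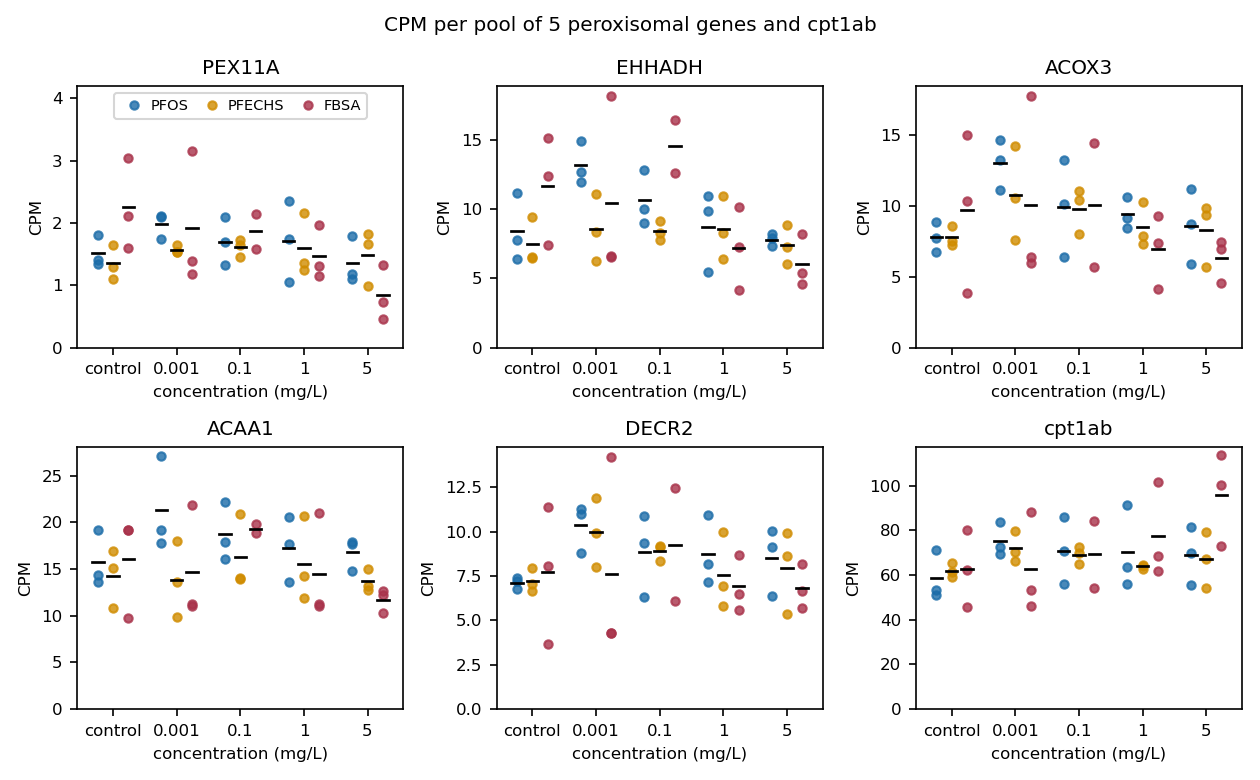
CPM in every pool (points) with group means (bars) for the 5 peroxisomal genes and cpt1ab, by concentration in mg/L and compound. FBSA pools (red) of PEX11A at 5 mg/L, between 0.459 and 1.33 CPM, lie below the FBSA controls, while the other peroxisomal genes overlap with theirs.

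Among the mitochondrial members 15 of the 19 had a negative change at 5 mg/L FBSA, and 0 passed edgeR's test, with 2 at an unadjusted p under 0.05. Of all genes tested 51.2% had a negative change, and 28.1% had an unadjusted p under 0.05. DESeq2 called 3 of the 30 members at this concentration, PEX11A, EHHADH and the mitochondrial cpt1ab, and 15.4% of all genes.

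The genes of the carnitine shuttle, which brings long chains into mitochondria, had changes of both signs. cpt1ab, 1 of the copies of carnitine palmitoyltransferase 1A that commits fatty acids to mitochondrial oxidation, was at 80.0, 62.4 and 45.5 CPM in FBSA controls. Exposed to 5 mg/L, the pools were at 100.1, 114 and 73.1 CPM. Of the exposed pools 2 lay above every control and 1 did not. The change was 0.61 ± 0.23 with an adjusted p of 0.0810, and the trend of 0.15 ± 0.05 per step had an adjusted p of 0.0524. The trend was called with RLE size factors, with the replicate block, with DESeq2 and in 6 of 14 fits that left out 1 library. With a term for place in the deposited table, the change at 5 mg/L was 0.26 and the trend was not called. FBSA control pools 2 and 3 carry this term and the 5 mg/L pools do not.

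The other copy, CPT1A, was at 30.6, 27.5 and 30.8 CPM in FBSA controls and 32.4, 27.7 and 33.1 CPM at 5 mg/L. These pools nearly coincide (0.07 ± 0.09, adjusted p = 0.668). Over all 44 libraries CPT1A stayed between 27.5 and 36.9 CPM, while cpt1ab ranged from 45.5 to 114 CPM. CPT2, which returns the chain to coenzyme A inside the mitochondrion, was at 24.9, 18.9 and 11.3 CPM in FBSA controls and 14.7, 21.4 and 11.1 CPM at 5 mg/L. Its pools were interleaved, with a change of -0.22 ± 0.28. SLC25A20, the carnitine-acylcarnitine exchanger, changed by -0.32 ± 0.17 (adjusted p = 0.231 in edgeR's test).

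The copies of carnitine acetyltransferase, CRAT, which buffers short acyl groups, had changes of opposite sign at 5 mg/L FBSA. ENSDARG00000016545 was at 23.8, 23.1 and 7.07 CPM in controls and 9.10, 21.3 and 5.54 CPM at 5 mg/L. Both groups held high and low pools, and the change was -0.58 ± 0.44. ENSDARG00000040248 was at 30.1, 30.9 and 29.6 CPM in controls and 31.3, 35.9 and 34.9 CPM at 5 mg/L. Its exposed pools all lay above the controls, as for 8.07% of all genes, but the change of 0.17 ± 0.10 was not called (adjusted p = 0.267).

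In the mitochondrial spiral the acyl-CoA dehydrogenases take the first oxidation step. ACADVL, specific for very long chains, was at 148, 166 and 85.7 CPM in FBSA controls and 96.7, 151 and 85.4 CPM at 5 mg/L (-0.26 ± 0.21). ACADM, specific for medium chains, was at 126, 139.9 and 108 CPM in controls and 118, 113 and 94.4 CPM at 5 mg/L (-0.20 ± 0.14). ACADS, specific for short chains, was at 36.7, 36.0 and 34.6 CPM in controls and 29.1, 39.0 and 23.5 CPM at 5 mg/L (-0.23 ± 0.16). In each, exposed and control pools overlapped. ACADL changed by -0.19 ± 0.20.

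The trifunctional protein carries the last steps for long chains. Its alpha subunit HADHA was at 111, 125 and 74.7 CPM in FBSA controls and 75.1, 119.7 and 67.9 CPM at 5 mg/L (-0.24 ± 0.18). The second alpha copy, hadhaa, was at 34.1, 38.4 and 25.2 CPM in controls and 28.2, 44.2 and 21.1 CPM at 5 mg/L (-0.06 ± 0.18). In both, exposed pool 2 was high and exposed pool 3 was low. The beta subunit HADHB changed by 0.08 ± 0.13. ECHS1, the hydratase for short chains, changed by 0.13 ± 0.18.

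The largest negative mitochondrial changes at 5 mg/L FBSA were those of ACAA2 and HADH, enzymes of the last steps of the cycle. ACAA2, the mitochondrial thiolase, was at 67.8, 85.8 and 35.6 CPM in controls and 32.7, 66.1 and 23.9 CPM at 5 mg/L. Exposed pool 2 lay within the control range, and the change was -0.62 ± 0.32 (adjusted p = 0.193). HADH, the dehydrogenase for short chains, changed by -0.48 ± 0.23 (adjusted p = 0.170). Among the genes for unsaturated chains, ECI1, the mitochondrial isomerase, changed by -0.40 ± 0.22 and DECR1, the mitochondrial dienoyl-CoA reductase, by -0.28 ± 0.27. ECI2, an isomerase of both organelles, changed by -0.30 ± 0.17. None of these passed edgeR's test.

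ETFA, ETFB and ETFDH carry electrons from the dehydrogenases to ubiquinone. Their changes at 5 mg/L FBSA were -0.14 ± 0.17, -0.14 ± 0.13 and -0.11 ± 0.27, and none passed edgeR's test.

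The number of members called at 5 mg/L FBSA turned on single pools, above all on exposed pool 2. Without it edgeR called 10 members, all lower: ACAA2, CRAT ENSDARG00000016545, DECR1, ECI1, ECI2, EHHADH, HADH, HADHA, PEX11A and SLC25A20. The count over all genes was then 5197, or 22.9%. Without control pool 3, the control with the lowest levels of most members, 3 members were called, EHHADH, HADH and PEX11A, and 15.4% of all genes. Without control pool 2 the count was 0, and without exposed pool 3 it was also 0, with 452 (1.99%) and 141 (0.621%) genes called in all. Without control pool 1 the 1 call was cpt1ab, and 10.2% of all genes were called.

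Taking the mean log2 CPM of the members in each pool, the mitochondrial mean was 5.93, 5.94 and 5.35 in FBSA controls and 5.50, 5.99 and 5.23 at 5 mg/L. The peroxisomal mean was 3.39, 3.15 and 2.16 in controls and 2.17, 2.63 and 1.98 at 5 mg/L. In both classes control pool 3 and exposed pool 3 were low. The distance between the class means was 2.54, 2.80 and 3.19 in FBSA controls and 3.33, 3.35 and 3.25 at 5 mg/L, so it was wider in each exposed pool than in each control pool. The peroxisomal mean includes PEX11A, the 1 member with every exposed pool below every control pool. This separation is therefore not independent of the PEX11A call, and the distance was not computed without that gene. For ACOX3, ACAA1 and DECR2 control pool 3 lay below every exposed pool, with DECR2 at 3.66 CPM against 5.71, 8.18 and 6.64 CPM. For EHHADH it lay among them. The wider distance is thus not shown for the peroxisomal class apart from PEX11A. At 1 mg/L the distance was 3.27, 3.50 and 2.91, which overlaps with the controls. No test was made of these means, because the members were chosen with results known.

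For PFOS the distance was 2.99, 3.06 and 2.94 in controls and 3.06, 2.87 and 3.19 at 5 mg/L. For PFECHS it was 2.99, 2.99 and 3.02 in controls and 2.89, 2.97 and 3.07 at 5 mg/L. Exposed and control pools overlapped for both. The SD of the peroxisomal mean over the 3 control pools was 0.65 for FBSA, 0.23 for PFOS and 0.09 for PFECHS. The plot of class means sets both classes beside intestine and liver markers.

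**Figure D3:**
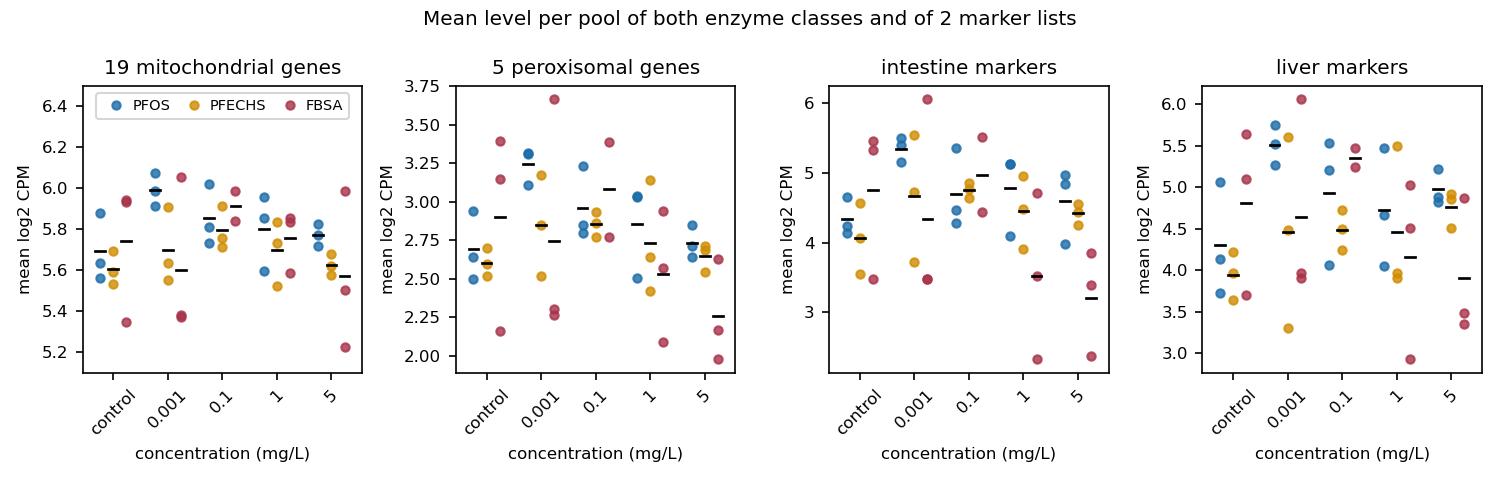
Mean log2 CPM per pool (points) with group means (bars) of the 19 mitochondrial genes, the 5 peroxisomal genes and the intestine and liver marker genes, by concentration in mg/L and compound. FBSA control pool 3 lies low in all 4 panels, at 5.35 for the mitochondrial and 2.16 for the peroxisomal genes.

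Tissue markers also had negative median changes, against 5.44% of all genes called lower and 5.79% called higher. Of 13 intestine markers 6 were called lower and 0 higher at 5 mg/L FBSA, with a median change of -1.88, and their summed level ranged from 146 to 343 CPM against 303 to 1140 CPM in controls. Of 10 liver markers 1 was called lower, the median change was -0.97, and the summed level was 278 to 654 CPM against 293 to 1049 CPM. Of 9 skeletal muscle markers 0 were called by edgeR and 4 had an unadjusted p under 0.05, with a median change of -0.50. Their summed level was 17621 to 45339 CPM against 22664 to 57869 CPM. Pronephros markers had 3 called lower and 1 higher of 9, with a median change of -1.29, and red blood cell markers 2 lower of 6, with a median of -0.68. Of 9 heart markers 0 were called by edgeR and 0 had an unadjusted p under 0.05, with a median of -0.36. For red blood cell markers the summed level lay fully below the controls, at 222 to 304 CPM against 315 to 526 CPM. It overlapped with the controls for the other lists. The highest red blood cell marker, hbae3, had a median of 286 CPM and weighs most in that sum. In mean log2 CPM the red blood cell list overlapped, at 2.46, 3.17 and 2.30 against 3.74, 3.82 and 2.69 in controls. The part of all these tissue markers in the results was not tested.

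Among the 3 related genes, all had positive changes at 5 mg/L FBSA and none passed edgeR's test. ANGPTL4, a secreted inhibitor of lipoprotein lipase and a PPAR target in mammals, was at 71.6, 77.7 and 64.5 CPM in FBSA controls, 121, 86.7 and 94.0 CPM at 1 mg/L and 106, 149 and 72.1 CPM at 5 mg/L. All pools at 1 mg/L lay above the controls, as for 3.27% of all genes, while at 5 mg/L 1 pool did not. The changes were 0.50 ± 0.24 (adjusted p = 0.754) and 0.61 ± 0.24 (adjusted p = 0.0926).

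ucp3, a mitochondrial carrier of the uncoupling protein family, was at 19, 15.1 and 16.8 CPM in FBSA controls and 32.6, 41.0 and 39.5 CPM at 5 mg/L. In the PFOS series it was at 18.1, 19.8 and 12.1 CPM in controls and 42.9, 38.0 and 30.8 CPM at 5 mg/L. Every exposed pool lay above every control pool in both series, as for 8.07% of all genes at 5 mg/L FBSA and 11.1% at 5 mg/L PFOS. Nonetheless the changes of 1.15 ± 0.57 (adjusted p = 0.179) and 1.16 ± 0.57 (adjusted p = 0.626) missed edgeR's threshold. Under alternative fits the change ranged from 0.51 to 1.24 for FBSA and from 0.97 to 1.47 for PFOS.

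Within single groups ucp3 varied widely. At 0.001 mg/L PFECHS it was at 53.6, 15.5 and 60.6 CPM, and at 1 mg/L FBSA at 53.2, 14.4 and 19.4 CPM. Its PFOS trend, 0.34 ± 0.13 per step, had an adjusted p of 0.327. PLIN2, which coats lipid droplets, was at 6.25, 7.59 and 11.7 CPM in FBSA controls and 10.8, 7.72 and 9.11 CPM at 5 mg/L, and its pools overlapped at 5 mg/L of each compound.

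After PFOS 0 of 30 members were called by edgeR or DESeq2 at any concentration. The share of all genes called by edgeR was 0% at 0.001 mg/L, 0.0176% at 0.1 mg/L, 0.00881% at 1 mg/L and 0.0132% at 5 mg/L. By edgeR 1 member had an unadjusted p under 0.05 at 0.001 mg/L, 0 at 0.1 and 1 mg/L, and 1 at 5 mg/L, beside 6.77%, 15.1%, 7.88% and 7.98% of all genes. The smallest adjusted p of any member was 0.333. In the PFOS trend 0 members were called, against 0.348% of all genes, and 1 had an unadjusted p under 0.05.

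Among the PFOS groups, the class medians were highest at 0.001 mg/L. At 0.001 mg/L 28 of 30 members had a positive change against 52.8% of all genes, and 12 had every exposed pool above every control pool, against 16.4% of all genes. The median was 0.30 for mitochondrial and 0.54 for peroxisomal members, beside 0.02 for all genes. At 0.1 mg/L the medians were 0.16 and 0.31, at 1 mg/L 0.10 and 0.17, and at 5 mg/L 0.06 and 0.10. These 4 comparisons share their control pools, and their order was not tested. Without 1 library the mitochondrial median ranged from 0.21 to 0.38 at 0.001 mg/L, 0.091 to 0.26 at 0.1 mg/L, 0.026 to 0.25 at 1 mg/L and -0.011 to 0.19 at 5 mg/L, so the ranges overlap. The peroxisomal median ranged from 0.48 to 0.64, 0.16 to 0.42, -0.0038 to 0.36 and -0.018 to 0.25. Pools lay fully above the controls for 3 members at 0.1 mg/L (15.0% of all genes), 1 at 1 mg/L (8.70%) and 1 at 5 mg/L (11.1%). A mostly positive sign was not particular to 0.001 mg/L PFOS. Positive changes were also found for 28 of 30 members at 0.1 mg/L PFECHS, where the median of all genes was 0.02. At 0.1 mg/L of PFOS and of FBSA 26 of 30 were positive, beside medians of 0.03 and -0.01 for all genes.

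The largest change at 0.001 mg/L PFOS was that of ACOX3. It was at 7.78, 6.72 and 8.86 CPM in PFOS controls and 14.7, 11.1 and 13.3 CPM at 0.001 mg/L (0.74 ± 0.40, adjusted p = 0.612). EHHADH was at 12.7, 12 and 14.9 CPM there (0.65 ± 0.34, adjusted p = 0.612). Both sets of pools lay above the controls without passing edgeR's test. Among the mitochondrial members hadhaa, the 1 member with an unadjusted p under 0.05, was at 26.6, 22.1 and 30.6 CPM in controls and 37.3, 33.9 and 34.7 CPM at 0.001 mg/L, with a change of 0.42 ± 0.19 and an adjusted p of 0.612.

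The intestine markers summed to 956 to 1177 CPM at 0.001 mg/L PFOS against 459 to 675 CPM in its controls, and the liver markers to 869 to 1003 CPM against 432 to 734 CPM. The heart markers summed to 109 to 132 CPM against 71.0 to 104 CPM, and those of the pronephros to 610 to 648 CPM against 477 to 485 CPM. Red blood cell markers summed to 422 to 456 CPM against 297 to 420 CPM, and skeletal muscle markers to 36378 to 39477 CPM against 21275 to 34784 CPM. The summed levels of the exposed pools thus lay above the controls in all 6 lists. In mean log2 CPM the heart markers overlapped, at 1.99, 1.74 and 2.23 at 0.001 mg/L against 0.68, 0.99 and 1.90 in controls. No marker was called by edgeR there, since 0% of all genes were, with 2 of 13 intestine, 1 of 10 liver, 1 of 9 heart, 2 of 9 pronephros, 1 of 6 red blood cell and 0 of 9 skeletal muscle markers at an unadjusted p under 0.05. Their part in the members' values was not tested.

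Exposed and control pools overlapped for 29 of the 30 members at 5 mg/L PFOS, ucp3 being the exception. CPT1A was at 32.1, 31.5 and 33.7 CPM in controls and 31.7, 32.7 and 31.1 CPM at 5 mg/L. cpt1ab was at 51.0, 53.1 and 71.2 CPM in controls and 70.0, 81.4 and 55.6 CPM at 5 mg/L, and its pools overlapped. CRAT ENSDARG00000016545 was at 10.9, 8.73 and 16.0 CPM in controls and 20.3, 14.4 and 25.6 CPM at 5 mg/L. Its change of 0.76 ± 0.44 had an adjusted p of 0.708. ETFDH was at 44.1, 47.4 and 47.5 CPM in controls and 69.2, 47.3 and 58.4 CPM at 5 mg/L (0.33 ± 0.27). The 30 changes ranged from -0.18 for CPT2 to 1.16 for ucp3.

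After PFECHS 0 of 30 members were called by edgeR or DESeq2 at any concentration or in the trend, and 0% of all genes were called by edgeR. By edgeR 0 members had an unadjusted p under 0.05 at any concentration, and the smallest adjusted p was 0.774. Mitochondrial medians were 0.07, 0.17, 0.07 and -0.01 from 0.001 to 5 mg/L, and peroxisomal medians 0.22, 0.25, 0.13 and 0.09, beside 0.01 to 0.02 for all genes. ACADM was at 119, 125 and 135 CPM at 5 mg/L against 115, 105 and 114 CPM in controls, and ACAA2 at 49.9, 53.9 and 50.6 CPM against 46.1, 45.2 and 36.5 CPM. These were the 2 members with all exposed pools above all controls, against 11.4% of all genes. Their changes were 0.19 ± 0.14 and 0.27 ± 0.32.

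CPT1A had a change of -0.12 ± 0.09 at 5 mg/L PFECHS, and ACADS of 0.23 ± 0.16. ACADS was at 28.5, 22.7 and 30.5 CPM in PFECHS controls and 26.1, 31.4 and 38.0 CPM at 5 mg/L. The 30 changes at this concentration ranged from -0.21 for CPT2 to 0.30 for ANGPTL4, which was at 66.4, 66.4 and 84.8 CPM in controls and 94.3, 91.8 and 82.4 CPM at 5 mg/L.

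At the 3 lower FBSA concentrations 0 members were called by edgeR or DESeq2, as were 0% of all genes by edgeR. Unadjusted p-values under 0.05 came from 0 members at 0.001 and 0.1 mg/L and from 2 at 1 mg/L, EHHADH with -0.69 ± 0.34 and ANGPTL4. Mitochondrial medians were -0.14, 0.13 and -0.01, and peroxisomal medians -0.12, 0.26 and -0.48. The classes thus did not order by concentration below 1 mg/L. At 0.001 mg/L pool 1 stood apart from the others in many members, with ACOX3 at 17.8 CPM against 5.98 and 6.43 CPM and CRAT ENSDARG00000016545 at 25.6 CPM against 7.47 and 8.16 CPM.

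Whether compounds of different structure differ in their effect was tested as the difference between their changes at each matched concentration, for 3 pairs and 4 concentrations. Of these 360 tests of a member, edgeR called 0, with 4 at an unadjusted p under 0.05 and a smallest adjusted p of 0.0539. DESeq2 called 1, PEX11A for PFECHS against FBSA at 5 mg/L, where it called 13.4% of all genes. Among all genes edgeR called 4.92% between PFOS and FBSA at 5 mg/L, 9.17% between PFECHS and FBSA, and 0% between PFOS and PFECHS.

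Between the shorter-chain sulfonamide FBSA and the sulfonates, PEX11A had the widest peroxisomal difference at 5 mg/L. The change after PFECHS exceeded that after FBSA by 1.54 on the log2 scale, with a 95% interval from 0.49 to 2.58 and an adjusted p of 0.0539. The change after PFOS exceeded that after FBSA by 1.24, from 0.20 to 2.28, with an adjusted p of 0.132. Without pool 2 at 5 mg/L FBSA edgeR called 4 members in each of these pairs, PEX11A, ACAA2 and ECI2 in both, joined by CRAT ENSDARG00000016545 against PFOS and by ACADS against PFECHS. Of all genes 18.1% and 21.7% were then called. PEX11A alone was called against PFECHS without FBSA control pool 3 or without pool 1 at 5 mg/L PFECHS, where 15.0% and 10.6% of all genes were called.

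Both pairs share the FBSA pools. The other members did not pass. For EHHADH the difference was 0.93 (-0.06 to 1.91) for PFECHS and 0.83 (-0.15 to 1.81) for PFOS against FBSA. For CRAT ENSDARG00000016545 it was 1.34 (0.08 to 2.61) for PFOS against FBSA, with an adjusted p of 0.179. The median difference was 0.76 for peroxisomal and 0.29 for mitochondrial members between PFOS and FBSA, beside 0.06 for all genes. Between PFECHS and FBSA it was 0.71 and 0.20, beside 0.04.

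Between the sulfonates PFOS and PFECHS, the chain and the ring compound, the medians at 5 mg/L were 0.07 for mitochondrial and 0.05 for peroxisomal members. For PEX11A the difference was -0.30 with an interval from -1.34 to 0.74, and for EHHADH -0.10 with an interval from -1.08 to 0.89. Both intervals reach past a log2 unit, so these tests do not show that the sulfonates act alike on peroxisomal members. The plot of differences gives every member.

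**Figure D4:**
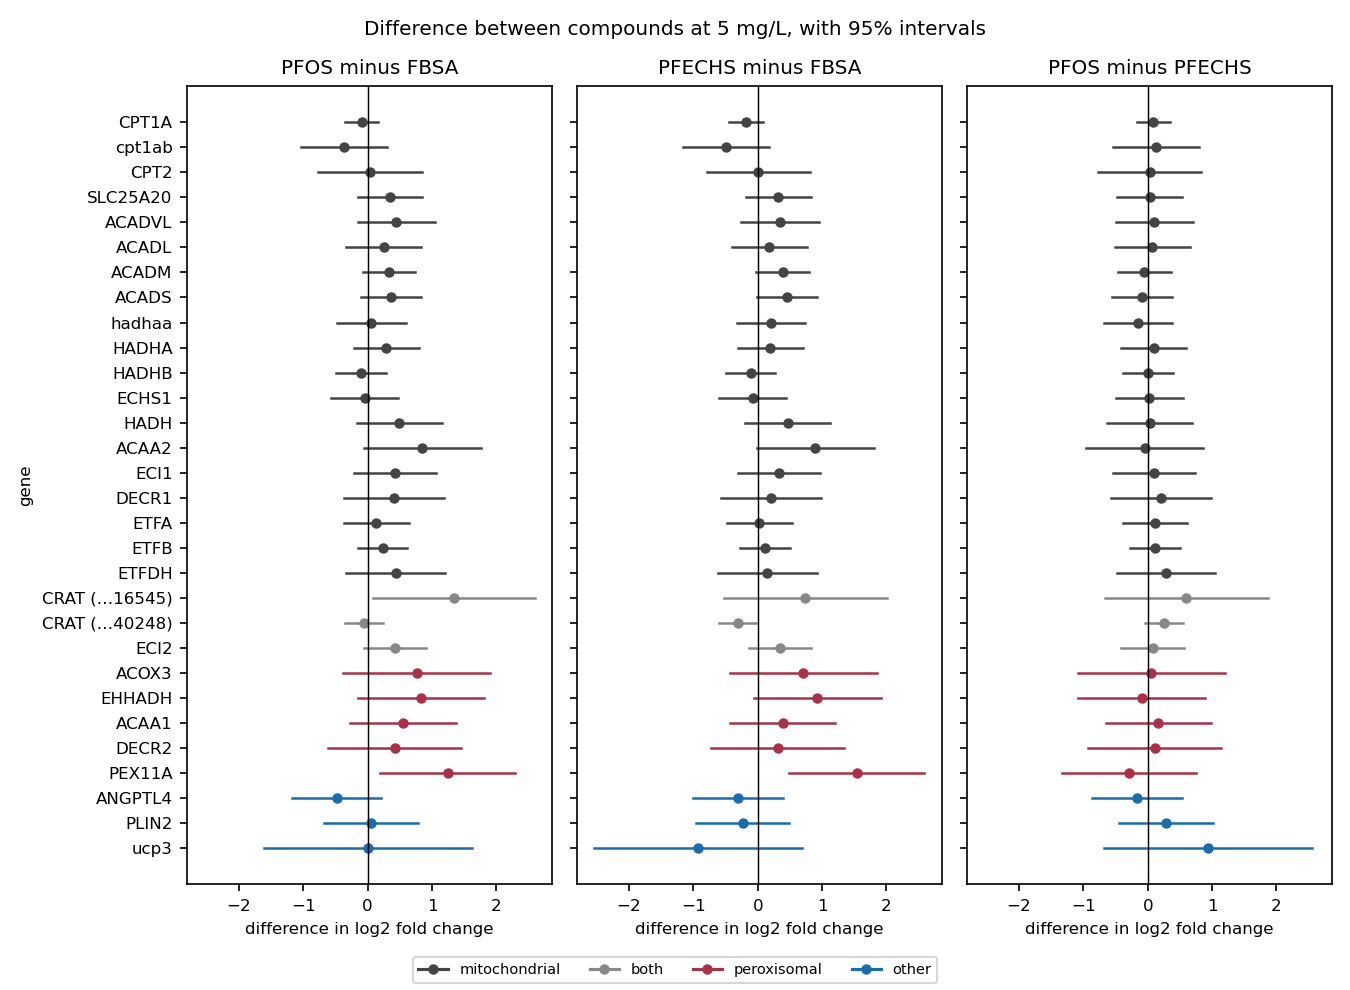
Difference in log2 fold change between 2 compounds at 5 mg/L for each of the 30 genes (points) with 95% intervals (lines), coloured by organelle. All 5 peroxisomal genes lie above 0 against FBSA, with PEX11A at 1.54 for PFECHS and 1.24 for PFOS, and none of the differences passed edgeR's test.

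The solvent controls of the 3 series bound such comparisons. Of the 30 members 0 differed between any pair of control groups in edgeR's or DESeq2's test, with 2 at an unadjusted p under 0.05 by edgeR and 3 by DESeq2. By edgeR these were PLIN2, lower in PFOS than in FBSA controls by a log2 difference of -0.53 (adjusted p = 0.260), and ACADS, lower in PFECHS than in FBSA controls by -0.39 (adjusted p = 0.149). Among all genes 0.150% were called between PFOS and FBSA controls and 0% between the other pairs. All 5 peroxisomal members had a negative difference between PFOS and FBSA controls and also between PFECHS and FBSA controls, with a median of -0.32 in each. For mitochondrial members 12 and 15 of 19 were negative, with medians of -0.10 and -0.14. The median of all genes was -0.03 in each.

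The wider lipid oxidation pathway was followed with 86 further symbols, for activation and uptake, other peroxisomal oxidation, peroxisome biogenesis, other mitochondrial steps and regulators. Of these 4 were not found, and 86 identifiers were tested. FBSA at 5 mg/L had 1 called higher and 10 called lower, against 5.79% and 5.44% of all genes, with a median change of -0.25. By edgeR 0 were called at 5 mg/L PFOS, with 10 at an unadjusted p under 0.05, and 0 at 5 mg/L PFECHS, with 5.

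In peroxisomes HSD17B4, the second bifunctional enzyme of the organelle, fell by 0.69 ± 0.17 on the log2 scale (adjusted p = 0.0116), and pecr, an enoyl-CoA reductase, fell by 0.37 ± 0.11 (adjusted p = 0.0257). In uptake and binding, FABP1 ENSDARG00000059227, a fatty acid binding protein abundant in liver and intestine of mammals, fell by 2.67 ± 0.64 (adjusted p = 0.00846). SLC27A4, a fatty acid transport protein, fell by 1.68 ± 0.47 (adjusted p = 0.0212).

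Of the regulators ESRRA, a nuclear receptor of oxidative metabolism, fell by 0.69 ± 0.17 (adjusted p = 0.0111), and RXRA ENSDARG00000057737, a partner of the PPAR receptors, fell by 0.52 ± 0.14 (adjusted p = 0.0162). Also called lower were SLC25A29, a mitochondrial carrier of basic amino acids, nudt19, which cleaves coenzyme A in mouse peroxisomes, and PCCB, a subunit of propionyl-CoA carboxylase. ABCD4, the gene called higher, takes part in vitamin B12 transport out of lysosomes rather than in peroxisomal oxidation, and it rose by 0.47 ± 0.13 (adjusted p = 0.0188). These calls share the limit of the FBSA series, in which no gene was called when its libraries were fitted alone.

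Of the 86 pathway genes 4 were called with a higher change after 5 mg/L PFOS than after FBSA, among them SLC27A4, FABP1 ENSDARG00000059227 and ESRRA. Between PFECHS and FBSA 9 were called, all higher after PFECHS, among them HSD17B4 with 0.77 ± 0.25 and PPARA ENSDARG00000054323, a copy of the receptor gene, with 2.12 ± 0.64. Among all genes 2.30% and 4.81% were called in these directions, and 4.92% and 9.17% in either. Between PFOS and PFECHS 0 were called by edgeR, with 0 at an unadjusted p under 0.05. PPARA ENSDARG00000054323 was at low levels, 1.04, 3.09 and 1.79 CPM in FBSA controls and 1.03, 1.03 and 0.494 CPM at 5 mg/L. In the PFECHS series it was at 0.776, 0.611 and 1.25 CPM in controls and 1.08, 1.63 and 2.28 CPM at 5 mg/L. The other copy, pparaa, was not called.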

How the data were processed

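The data are RNA-seq libraries of 44 embryo pools. The authors deposited expected counts, which estimate the reads of each gene: no value is negative, and between 54.1% and 79.8% of those in a library carry a fraction. The submitters' processing notes name FastQC, MultiQC and Trimmomatic. The sources used here name neither the counting program nor the genome build, and coordinates are left out. Identifiers were named through the supplied gene name table.

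Counts were rounded, filtered with edgeR's filterByExpr by group and fitted in 1 model over all 15 groups (R 4.3.3, edgeR 4.0.16 with TMM factors and its quasi-likelihood test, 29 residual degrees of freedom, common dispersion 0.068). Contrasts were 12 concentrations against own controls, 3 linear trends over the 5 ordered groups of a compound, 12 differences between compounds and 3 between controls, with Benjamini-Hochberg adjustment over 22703 genes. The SE was obtained from each log2 change and its F statistic. Class values are medians without a test. Pool means used log2 CPM with a prior count of 2. The members, the pathway and marker lists and the rule for naming genes were chosen with earlier results of these data known. Named with values were called members, the 3 with the smallest p at 5 mg/L of each compound and a chosen set of symbols. From the pathway list only called genes were named, and 1 of them is not reported here.

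Alternatives were RLE size factors, no filter, a replicate block, a term for the last 11 columns of the deposited table, the compound's own libraries alone, DESeq2 1.42.0, and leaving out each library. The highest correlation of log2 CPM between libraries was 0.987, and none was a duplicate. The fit was tested on simulated data.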

Additional observations from a re-analysis of the deposited data

How the results depend on the processing

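Of 27 comparisons of members, 23 kept their count of called members under the 6 alternatives run on all libraries or on a compound's own libraries and under leave-one-out fits. At 5 mg/L FBSA the count of 1 became 0 with the compound's own libraries only, 2 with the table place term, 3 with DESeq2 and 0 to 10 without 1 library. The member added by the table place term was ACOX3. The count of 2 in the FBSA trend became 3 with RLE size factors, DESeq2, the table place term or the replicate block, 0 with own libraries only and 0 to 6 without 1 library. Among these 3, the added member was ACOX3 with the table place term and cpt1ab with RLE size factors, DESeq2 or the replicate block. For PFOS against FBSA at 5 mg/L the count of 0 became 1 with the table place term (DECR2) and 0 to 4 without 1 library, and for PFECHS against FBSA 1 with DESeq2 (PEX11A) and 0 to 4 without 1 library. The labels do not say whether the replicate numbers pair the pools, and the main fit did not treat them as pairs. Of 35 same-numbered pairs 14 had deviations correlated above 0.1, and in 0 of 12 comparisons did every pair. The correlations ranged from -0.408 to 0.61. They cannot settle the pairing, because deviations were taken from means of at most 3 pools. With the replicate block 4 calls were made over the 27 comparisons against 3 without, the added one being cpt1ab in the FBSA trend. Where no share of all genes is given for an alternative fit, its count of members cannot be read as particular to them.

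Leaving out 1 library moved these class medians by more than the spread of the controls. After PFECHS the mitochondrial median ranged from -0.047 to 0.16 at 0.001 mg/L, from 0.0061 to 0.17 at 1 mg/L and from -0.082 to 0.071 at 5 mg/L. The peroxisomal median ranged from 0.18 to 0.40 at 0.001 mg/L, from 0.21 to 0.37 at 0.1 mg/L, from -0.055 to 0.27 at 1 mg/L and from -0.017 to 0.17 at 5 mg/L, and after 0.001 mg/L FBSA from -0.80 to 0.089.

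Of 688 alternatives for single genes 630 kept direction and side of the threshold, and 37 turned in sign, all for changes that were not called. With the table place term the change at 5 mg/L PFOS was 0.0003 for CPT2, 0.041 for hadhaa and -0.0029 for PLIN2, and EHHADH at 5 mg/L PFECHS was 0.058, or 0.0037 with the replicate block. Without 1 library the change at 5 mg/L PFOS ranged from -0.047 to 0.0019 for CPT1A, -0.0060 to 0.24 for ACADS, -0.12 to 0.11 for hadhaa, -0.020 to 0.11 for HADHA, -0.088 to 0.36 for ACOX3, -0.28 to 0.14 for EHHADH, -0.026 to 0.41 for ANGPTL4 and -0.054 to 0.36 for PLIN2. At 5 mg/L PFECHS it ranged from -0.031 to 0.24 for cpt1ab, -0.0070 to 0.16 for ACADVL, -0.082 to 0.17 for ETFDH, -0.056 to 0.30 for ACOX3, -0.17 to 0.19 for EHHADH, -0.23 to 0.069 for ACAA1, -0.034 to 0.36 for PEX11A, -0.31 to 0.012 for PLIN2 and -0.37 to 0.50 for ucp3. At 5 mg/L FBSA it ranged from -0.51 to 0.054 for CPT2, -0.40 to 0.15 for hadhaa, -0.47 to 0.089 for ETFDH and -0.078 to 0.41 for PLIN2. The cause of these shifts was not tested. PEX11A had the fewest counts of the members, 13 to 99 per library.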
